A study of Mus musculus with 12 samples.

Results

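Transcripts of 10 genes of the neutrophil, of 43432 genes counted, were followed through sciatic nerves of 1-month-old mice. The genes are *S100a8*, *S100a9*, *Lcn2*, *Ngp*, *Camp*, *Ltf*, *Retnlg*, *Mmp8*, *Cxcr2* and *Csf3r*. They were found by their symbols in the deposited tables and joined by Ensembl identifier to the read counts. They were chosen from the difference between nerves of *Mtmr2* KO and WT control mice, of which *S100a9* was already known, so for that comparison their values are a description and carry no test. The same holds for niacin-treated against untreated *Mtmr2* KO mice, which uses the same *Mtmr2* KO libraries. Niacin-treated against WT control mice uses the same WT control libraries, so adjusted p-values of these genes there are also a description.

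The mice lacked *Mtmr2*, a phospholipid phosphatase gene whose loss causes Charcot-Marie-Tooth neuropathy type 4B1, or carried its wild-type form. There were 3 groups of 4 mice, each of 3 males and 1 female, with 1 nerve and 1 library per mouse. WT control mice (Mtmr2 wt/wt, replicates 4497 to 4500) and *Mtmr2* KO mice (Mtmr2 -/-, replicates 4501 to 4504) have the treatment none in the labels. Niacin-treated *Mtmr2* KO mice (Mtmr2 -/-, replicates 4505 to 4508) were given intraperitoneal niacin (120 mg/kg) between postnatal days 10 and 21, and then a slow-release form, Niacin-SR, by gavage until day 30. The sex of each single mouse is not given.

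Neutrophils are short-lived white blood cells that leave the bone marrow filled with granules. S100a8 and S100a9 pair into calprotectin, a calcium- and zinc-binding protein abundant in the neutrophil cytosol. Lcn2, Ngp, Camp, Ltf and Mmp8 are proteins of the secondary granules, whose messenger RNAs are made mainly by maturing precursors in the marrow, while Retnlg, Cxcr2 and Csf3r mark mature cells. *Lcn2* is also switched on by inflammatory signals in many other cell types. A healthy nerve holds few neutrophils, and counts are shown beside the scaled levels because many of them are low.

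The 10 genes lie on 6 chromosomes of GRCm38, and none overlaps another annotated gene. *S100a8* (ENSMUSG00000056054) spans 90668978 to 90670035 on the + strand of chromosome 3, and *S100a9* (ENSMUSG00000056071) spans 90692632 to 90695721 on the − strand, 22.6 kb away. *Camp*, *Ngp* and *Ltf* follow each other on chromosome 9, with gaps of 570.1 kb and 596.3 kb, and *Mmp8* lies farther off on the same chromosome. *Lcn2* (ENSMUSG00000026822) spans 32384633 to 32388252 on the − strand of chromosome 2. *Retnlg* lies on chromosome 16, *Cxcr2* on chromosome 1 and *Csf3r* on chromosome 4.

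Granule genes are known targets of the myeloid transcription factors PU.1 and C/EBP. Promoters of RefSeq (GRCm38.p6), from 250 bases before to 50 bases after the start, were found for all 10 genes and searched on both strands for the PU.1 core GAGGAA and the C/EBP core TTNNGNAA. The 4 promoters below belong to the calprotectin pair, to *Lcn2* and to *Ngp*, the genes on which the differences between libraries turn, and capitals mark the matches. They cover chr3:90668821-90669120 (+) for *S100a8*, chr3:90695672-90695971 (−) for *S100a9*, chr2:32387690-32387989 (−) for *Lcn2* and chr9:110419558-110419857 (+) for *Ngp*.
S100a8: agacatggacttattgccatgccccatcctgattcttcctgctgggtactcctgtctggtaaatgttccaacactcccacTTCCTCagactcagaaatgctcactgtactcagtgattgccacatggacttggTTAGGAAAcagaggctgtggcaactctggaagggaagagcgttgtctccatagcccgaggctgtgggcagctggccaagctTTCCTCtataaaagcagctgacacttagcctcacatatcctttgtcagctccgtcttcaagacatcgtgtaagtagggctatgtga
S100a9: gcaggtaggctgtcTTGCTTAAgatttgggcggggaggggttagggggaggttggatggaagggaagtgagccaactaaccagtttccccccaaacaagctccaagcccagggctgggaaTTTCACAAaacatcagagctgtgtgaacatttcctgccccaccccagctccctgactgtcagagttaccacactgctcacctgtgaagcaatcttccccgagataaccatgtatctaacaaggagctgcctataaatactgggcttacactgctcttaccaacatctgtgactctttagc
Lcn2: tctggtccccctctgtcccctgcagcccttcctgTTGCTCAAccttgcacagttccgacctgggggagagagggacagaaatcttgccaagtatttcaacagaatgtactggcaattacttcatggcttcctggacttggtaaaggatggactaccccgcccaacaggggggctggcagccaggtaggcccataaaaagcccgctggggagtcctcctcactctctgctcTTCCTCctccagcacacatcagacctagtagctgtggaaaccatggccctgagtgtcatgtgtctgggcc
Ngp: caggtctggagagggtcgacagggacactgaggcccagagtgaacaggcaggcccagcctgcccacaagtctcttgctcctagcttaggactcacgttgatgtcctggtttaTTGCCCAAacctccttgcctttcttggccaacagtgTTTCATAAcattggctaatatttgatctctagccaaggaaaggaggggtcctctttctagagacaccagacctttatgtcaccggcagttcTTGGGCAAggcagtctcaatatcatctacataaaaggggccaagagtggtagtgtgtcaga
The PU.1 core was found in the promoters of 6 of the 10 genes, and in 28.3% of all 32851 promoters searched. The C/EBP core was found in 7 of the 10, and in 40.7% of all promoters. *Ngp* held 3 C/EBP matches and no PU.1 match, and *S100a9* held 2 and none. *S100a8* held 2 PU.1 matches and 1 C/EBP match, and *Lcn2* held 1 of each. A match describes the letters only.

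Libraries held 20763951 to 33191106 reads on genes. Levels are CPM, reads scaled by the library total after edgeR's TMM method. A count of 3, taken here as the floor below which a gene is not told from absence, was worth 0.102 to 0.109 CPM in WT control, 0.096 to 0.144 CPM in the libraries labelled *Mtmr2* KO and 0.129 to 0.147 CPM in niacin-treated libraries. *Mtmr2* itself had 127.9 to 160.7 CPM in WT control and 66.7 to 73.4 CPM in niacin-treated mice. In the libraries labelled *Mtmr2* KO it had 71.5, 84.6, 143.0 and 69.4 CPM in replicates 4501 to 4504, so that replicate 4503 went against its label. For the neutrophil genes that were fitted, fold changes that rest on it are given with and without it. Fold changes of other genes include it unless a value without it is printed. *Mbp*, myelin basic protein, a marker of the myelinating Schwann cells of the nerve, was abundant in every library, with 21344 to 33519 CPM.

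**Figure D1:**
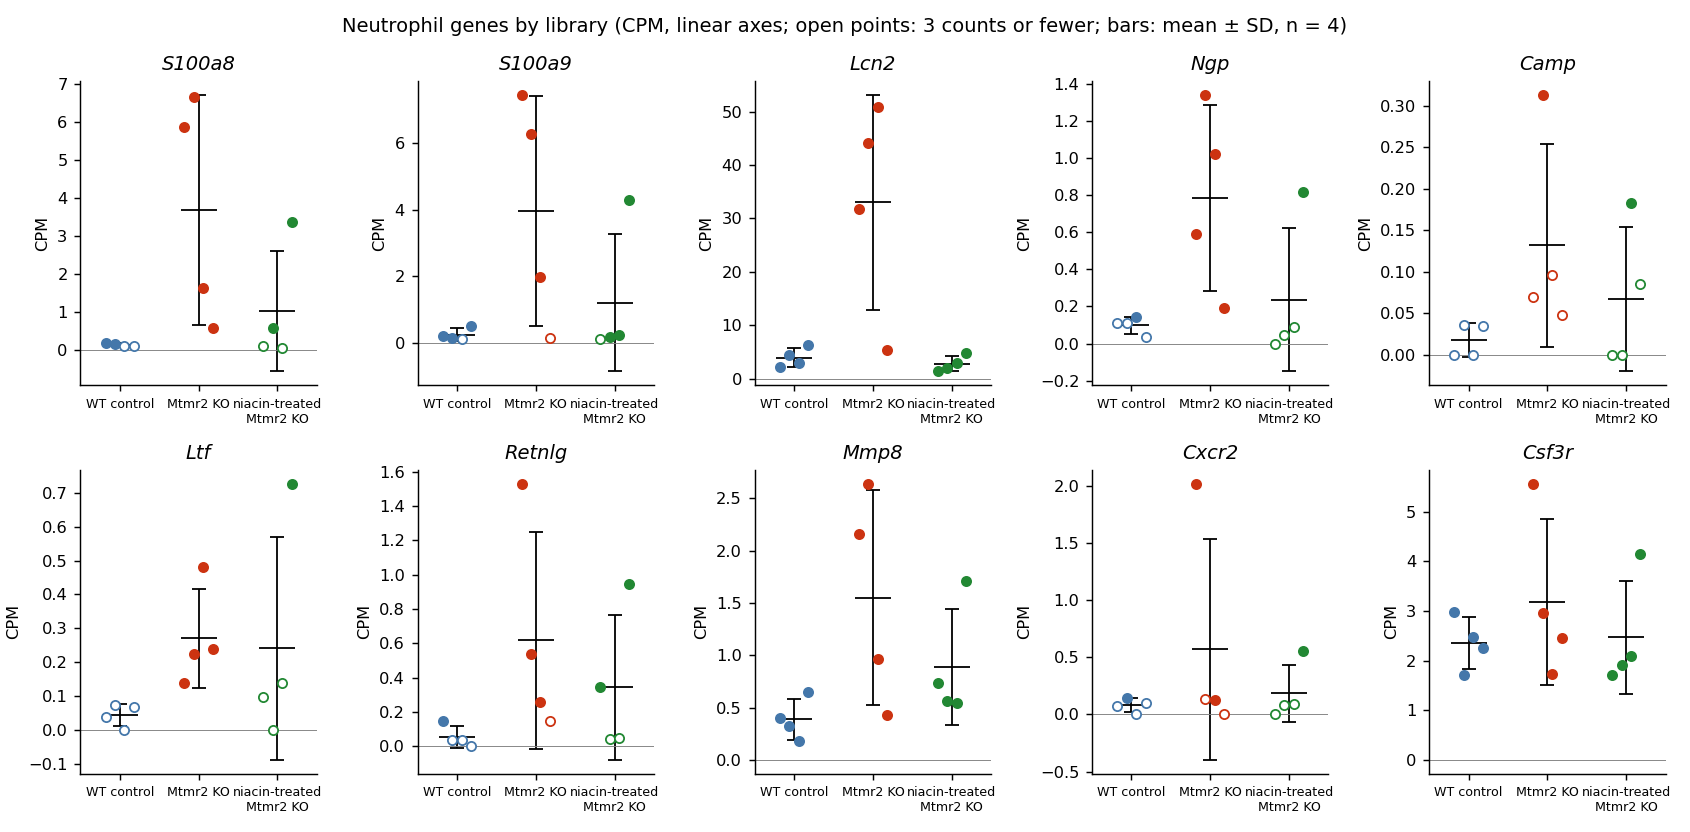
CPM of the 10 neutrophil genes (linear vertical axes) in each library of the 3 groups. Points are libraries, open where 3 reads or fewer were counted, and bars give the mean ± SD (n = 4). Most of the high values belong to 3 of the 4 libraries labelled *Mtmr2* KO and to 1 niacin-treated library.

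The calprotectin genes were close to the floor in WT control nerves and high in 3 of 4 libraries labelled *Mtmr2* KO. In bulk tissue, fewer neutrophils and less messenger RNA per neutrophil cannot be told apart. *S100a8* had 5, 4, 3 and 3 reads in WT control replicates 4497 to 4500, which is 0.182, 0.144, 0.109 and 0.102 CPM. In the libraries labelled *Mtmr2* KO it had 169, 149, 51 and 12 reads in replicates 4501 to 4504, or 5.88, 6.67, 1.63 and 0.577 CPM. All 4 of these lay above all 4 WT control libraries, with replicate 4504 the lowest. In niacin-treated mice it had 2, 13, 1 and 79 reads in replicates 4505 to 4508, or 0.0978, 0.563, 0.0456 and 3.38 CPM. Replicate 4508 therefore lay among the higher *Mtmr2* KO libraries, and the other niacin-treated libraries at or below the level of replicate 4504. The exact 95% Poisson interval of the count was 2.68 to 4.22 CPM in replicate 4508 and 0.00116 to 0.254 CPM in replicate 4507. Such intervals cover counting error only, as the reads carry no molecular identifiers.

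*S100a9* was also highest in replicates 4501, 4502, 4508 and 4503. It had 5, 4, 3 and 15 reads in WT control, or 0.182, 0.144, 0.109 and 0.512 CPM. In replicates 4501 to 4504, labelled *Mtmr2* KO, it had 214, 140, 62 and 3 reads, or 7.45, 6.27, 1.98 and 0.144 CPM. Replicate 4504 thus lay inside the range of WT control for *S100a9*, and above it for *S100a8*. In niacin-treated mice the reads were 2, 4, 5 and 100, or 0.0978, 0.173, 0.228 and 4.28 CPM, and again replicate 4508 stood apart.

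In libraries with many reads, the 2 partners of calprotectin took similar shares of reads. *S100a8* made up 44.1% of the reads of the pair in replicate 4501 (95% Clopper-Pearson interval 39.1% to 49.3%), 51.6% in replicate 4502 (45.6% to 57.5%), 45.1% in replicate 4503 (35.8% to 54.8%) and 44.1% in replicate 4508 (36.7% to 51.7%). The share in niacin-treated replicate 4508 was within the intervals of replicates 4501 and 4503, and the intervals of all 4 libraries overlapped. In the other 8 libraries the pair had between 4 and 18 reads together, too few to compare the share. As the exons of *S100a9* are shorter, its level per 1000 bases of exon (RPKM) was the higher of the pair in these 4 libraries, with 14.3 against 8.47 RPKM in replicate 4501, 12 against 9.61 in replicate 4502, 3.8 against 2.35 in replicate 4503 and 8.21 against 4.88 in replicate 4508.

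*Lcn2*, a lipocalin that binds the iron carriers of bacteria, was the member with the most reads. WT control libraries held 59, 123, 80 and 183 reads, or 2.14, 4.42, 2.90 and 6.24 CPM. In the libraries labelled *Mtmr2* KO it reached 913, 985 and 1591 reads in replicates 4501 to 4503, or 31.8, 44.1 and 50.9 CPM, and 110 reads or 5.29 CPM in replicate 4504. The first 3 lay far above WT control and replicate 4504 within it. In niacin-treated mice it had 30, 48, 66 and 111 reads, or 1.47, 2.08, 3.01 and 4.76 CPM. All 4 niacin-treated libraries lay below all 4 libraries labelled *Mtmr2* KO and overlapped with WT control. The highest *Lcn2* level of all was in replicate 4503, the library whose *Mtmr2* level went against its label.

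*Lcn2* and the calprotectin genes parted in niacin-treated replicate 4508. There were 0.62 reads of *Lcn2* for each read of *S100a8* and *S100a9* in that library, against 2.38 to 14.1 in the 4 libraries labelled *Mtmr2* KO, 5.9 to 15.4 in WT control and 2.82 to 11 in the other 3 niacin-treated libraries. Outside replicates 4501, 4502, 4503 and 4508 the pair had 18 reads or fewer, so those ratios are imprecise. In replicate 4508 the calprotectin pair reached 7.67 CPM, between the 3.62 CPM of replicate 4503 and the 12.9 CPM of replicate 4502, while *Lcn2* stayed inside the WT control range. Of all reads of the 10 genes, *Lcn2* took 22.2% in replicate 4508 and 86.0% in replicate 4503, the extremes of the 12 libraries.

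**Figure D2:**
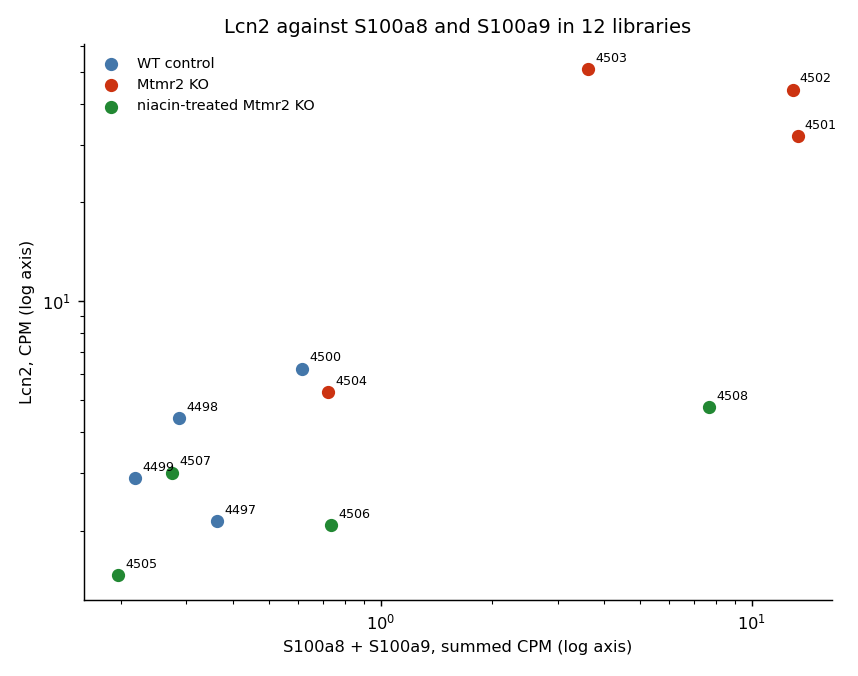
*Lcn2* (vertical, CPM, log axis) against the summed CPM of *S100a8* and *S100a9* (horizontal, log axis) in the 12 libraries, labelled by replicate number. Replicates 4501 to 4503 are high on both axes, replicate 4508 at 7.67 CPM on the horizontal axis only, and the other 8 libraries are low on both.

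The remaining granule genes gave fewer reads. *Ngp*, a granule protein related to the cathelicidins, had 3, 3, 4 and 1 reads in WT control and 17, 30, 32 and 4 reads in the libraries labelled *Mtmr2* KO, which is 0.591, 1.34, 1.02 and 0.192 CPM. These 4 lay above WT control, where the highest value was 0.145 CPM. In niacin-treated mice *Ngp* had 0, 1, 2 and 19 reads, so only replicate 4508, at 0.814 CPM, was above the floor. *Mmp8*, the collagenase of neutrophils, had 11, 9, 5 and 19 reads in WT control, or 0.400, 0.323, 0.181 and 0.648 CPM. In replicates 4501 to 4504 it had 62, 59, 30 and 9 reads, or 2.16, 2.64, 0.96 and 0.432 CPM, with the last inside the WT control range. In niacin-treated mice it had 15, 13, 12 and 40 reads, or 0.734, 0.563, 0.548 and 1.71 CPM, and replicate 4508 was again the highest of the group.

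*Camp*, the mouse cathelicidin, and *Ltf*, the iron-binding lactoferrin, were at the limit of detection. *Camp* had 2 reads in all 4 WT control libraries together, 13 in the libraries labelled *Mtmr2* KO, of which 7 were in replicate 4502, and 6 in niacin-treated mice. *Ltf* had 1, 2, 0 and 2 reads in WT control, 4, 5, 15 and 5 in the libraries labelled *Mtmr2* KO, and 2, 0, 3 and 17 in niacin-treated mice. The highest *Ltf* level of all, 0.728 CPM, was in niacin-treated replicate 4508. For both genes every library labelled *Mtmr2* KO lay above every WT control library in CPM, but for *Camp* this rests on 1 read in the smallest library, replicate 4504.

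*Retnlg*, a resistin-like secreted protein of neutrophils, had 4, 1, 1 and 0 reads in WT control and 44, 12, 8 and 3 in the libraries labelled *Mtmr2* KO. In niacin-treated mice it had 7, 1, 1 and 22 reads, and only replicates 4505 and 4508 passed 3 reads. Among the receptors, *Cxcr2*, which binds the chemokines that draw neutrophils into tissue, had 2, 4, 0 and 3 reads in WT control. It had 58 reads in replicate 4501 but 3, 4 and 0 in the other libraries labelled *Mtmr2* KO, and 0, 2, 2 and 13 in niacin-treated mice. *Cxcr2* was thus high in 1 library of its group, and replicates 4502 and 4503, which were high in *S100a8*, *Lcn2* and *Ngp*, had as few reads as WT control.

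*Csf3r*, the receptor of the granulocyte growth factor Csf3, was detected well in every library and varied least. It had 82, 48, 68 and 66 reads in WT control, or 2.98, 1.72, 2.47 and 2.25 CPM. In the libraries labelled *Mtmr2* KO it had 160, 66, 54 and 51 reads, or 5.57, 2.96, 1.73 and 2.45 CPM. In niacin-treated mice it had 35, 44, 46 and 97 reads, or 1.71, 1.91, 2.10 and 4.16 CPM. The highest values were again in replicates 4501 and 4508, and the other 10 libraries of the 3 groups lay between 1.71 and 2.98 CPM.

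**Figure D3:**
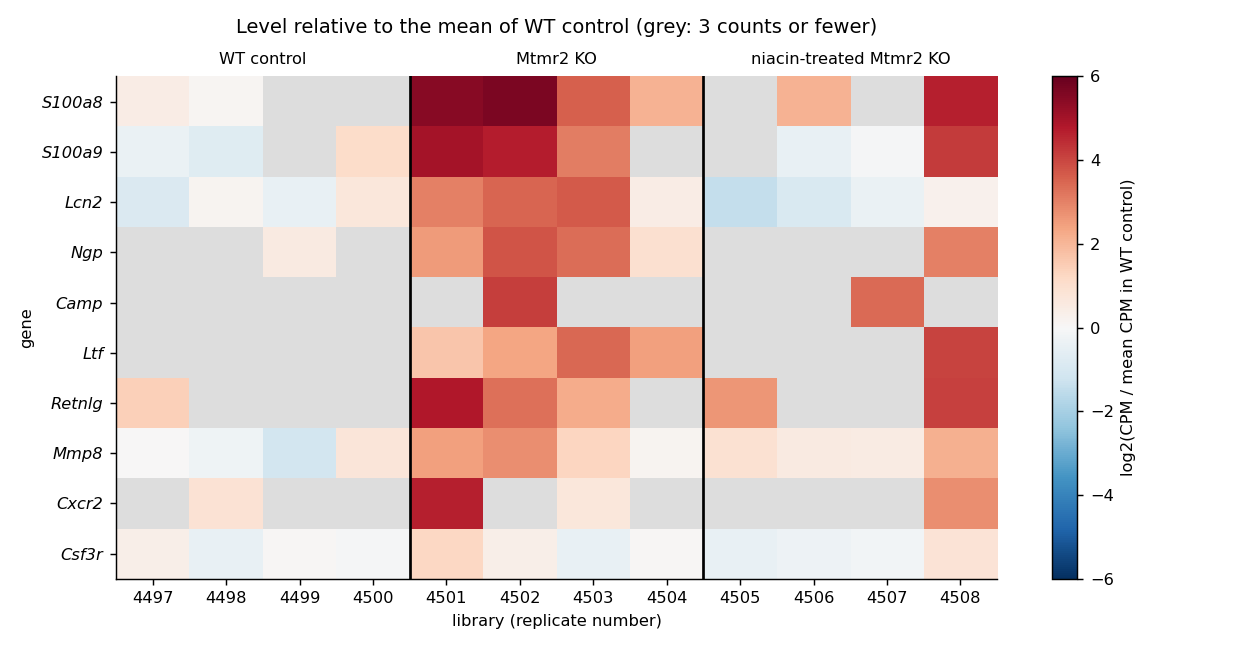
Level of each gene in each library as log2 of its CPM over the mean CPM of WT control (colour scale), with the libraries of the 3 groups side by side and cells of 3 reads or fewer in grey. *S100a8*, *S100a9*, *Ngp* and *Mmp8* are highest in libraries 4501, 4502, 4503 and 4508, and *Retnlg* in 4501, 4508 and 4502. *Lcn2* is near the WT control mean in 4508, and grey cells fill 20 of the 40 WT control values.

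Few reads therefore stood behind many of these values. Of the 40 values of the 10 genes in WT control, 20 were at 3 reads or fewer and 5 at 0. The same was true of 7 values in the libraries labelled *Mtmr2* KO, with 1 at 0, and of 17 values in niacin-treated mice, with 5 at 0. A fold change against WT control thus rests on few reads for all genes but *Lcn2*, *Csf3r* and, less so, *Mmp8*. When the 12 libraries were ordered by the level of each gene, replicate 4502 was among the 4 highest for 10 of the 10 genes, replicate 4508 for 9, replicate 4501 for 8 and replicate 4503 for 7. No other library was among the 4 highest for more than 1 gene.

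Levels of different genes were compared per 1000 bases of exon, as RPKM. In WT control *Lcn2* was highest at 1.5 ± 0.691 RPKM (SD, n = 4), followed by *Csf3r* at 0.652 ± 0.144 RPKM and *S100a9* at 0.453 ± 0.356 RPKM, and *Ltf* was lowest at 0.0128 ± 0.00969 RPKM. In the libraries labelled *Mtmr2* KO *Lcn2* was at 12.6 ± 7.67 RPKM, *S100a9* at 7.59 ± 6.63 RPKM and *S100a8* at 5.32 ± 4.37 RPKM, all above *Retnlg* at 1.04 ± 1.06 RPKM. Without replicate 4503 these 4 genes were at 10.3 ± 7.56, 8.85 ± 7.51, 6.31 ± 4.78 and 1.24 ± 1.21 RPKM (SD, n = 3), in the same order. In niacin-treated mice the calprotectin genes led, with 2.29 ± 3.95 RPKM for *S100a9* and 1.47 ± 2.29 RPKM for *S100a8*, ahead of *Lcn2* at 1.08 ± 0.546 RPKM. Most of this order was not resolved. Of 9 neighbouring pairs, the means differed by more than the larger SD of the pair in 2 in WT control, 1 in the libraries labelled *Mtmr2* KO and 0 in niacin-treated mice.

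The groups were compared by a fit over all 12 libraries and the 17257 genes that passed edgeR's filter on low counts, with calls at a Benjamini-Hochberg adjusted p under 0.05. *S100a8*, *S100a9*, *Lcn2*, *Ngp*, *Mmp8* and *Csf3r* passed the filter. *Camp*, *Ltf*, *Retnlg* and *Cxcr2* did not and have no fold change from this fit. Genes that are low in 2 groups can pass the filter through the other, so the 6 that passed do not stand for all 10.

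For each of the 10 genes, the libraries labelled *Mtmr2* KO had a higher mean CPM than WT control. Of the 6 genes fitted, 1 was called higher, *Lcn2*, while 0.0464% of all genes tested were called higher. The log2 fold change was 4.74 (SE 1.11) for *S100a8*, 4.03 (SE 1.19) for *S100a9*, 3.07 (SE 0.57) for *Lcn2*, 2.95 (SE 0.89) for *Ngp*, 1.98 (SE 0.57) for *Mmp8* and 0.43 (SE 0.37) for *Csf3r*. Their median was 3.01, against 0.03 over all genes tested. All libraries labelled *Mtmr2* KO were above all WT control libraries for *S100a8* and *Ngp* among these 6, and for *Camp* and *Ltf* among the others, while 3.85% of all genes tested were separated in this direction. As these genes were chosen on this difference, their count says nothing beyond the choice.

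Another tool, or 1 library fewer, changed how many of these genes were called. DESeq2 over the same 12 libraries called 6 of the 10 genes higher (*S100a8*, *S100a9*, *Lcn2*, *Ngp*, *Mmp8* and *Retnlg*), with 1.38% of all genes it tested called higher. With edgeR and only these 2 groups, 0 of them were called. Without replicate 4503 the log2 fold change was 2.78 for *Lcn2*, 4.99 for *S100a8*, 4.25 for *S100a9*, 2.79 for *Ngp*, 2.15 for *Mmp8* and 0.64 for *Csf3r*, and none of the 10 genes was called. Without replicate 4504, the library with the lowest values, it was 3.42 for *Lcn2*, 5.08 for *S100a8* and 2.27 for *Mmp8*, and these 3 were called. Leaving out any 1 WT control library, or niacin-treated replicate 4506, 4507 or 4508, also ended the call of *Lcn2*, as did leaving out replicate 4502, while its log2 fold change lay between 2.78 and 3.42 in all 12 such fits.

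In niacin-treated mice the mean CPM of all 10 genes was below that of the libraries labelled *Mtmr2* KO. *Lcn2* was the 1 gene of the 6 called lower, with 0.73% of all genes tested called lower. Its log2 fold change was −3.54 (SE 0.59). *Lcn2* was also the 1 gene of the 10 whose niacin-treated libraries all lay below all untreated ones, a separation found for 3.4% of all genes tested. The log2 fold change was −1.83 (SE 0.89) for *S100a8*, −1.71 (SE 1.02) for *S100a9*, −1.68 (SE 0.81) for *Ngp*, −0.79 (SE 0.53) for *Mmp8* and −0.36 (SE 0.37) for *Csf3r*. Replicate 4508 weighed on the calprotectin genes and *Ngp*. Without it the log2 fold change was −3.91 for *S100a8*, −4.52 for *S100a9* and −3.97 for *Ngp*, and −3.91 for *Lcn2*. The call of *Lcn2* was lost with any 1 WT control library left out, without replicate 4503, 4506 or 4507, and with edgeR on only the 2 groups. With replicate 4503 left out, its log2 fold change was −3.25, and that of *S100a8* was −2.08, of *S100a9* −1.94, of *Ngp* −1.52, of *Mmp8* −0.97 and of *Csf3r* −0.57.

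**Figure D4:**
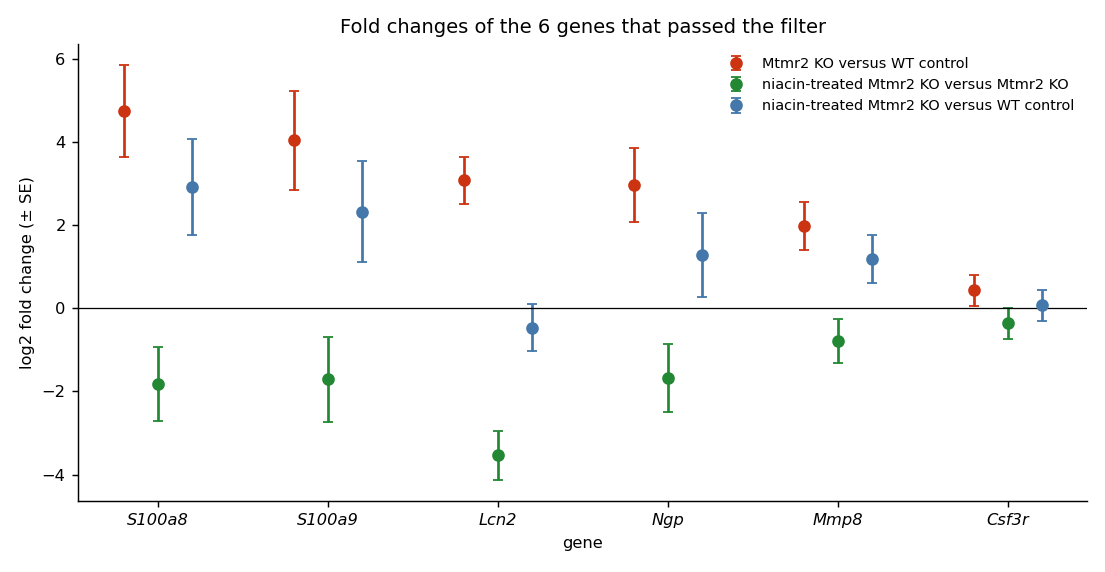
Log2 fold change ± SE (vertical axis, edgeR over 12 libraries) of the 6 genes that passed the filter, for the 3 comparisons. For *Lcn2* the values are 3.07, −3.54 and −0.47, while *S100a8* stays at 2.91 between niacin-treated and WT control mice, with an SE of 1.15. The comparisons share libraries and are not independent.

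Niacin-treated *Mtmr2* KO mice and WT control mice were compared last, in a contrast that shares the WT control libraries with the first. As the genes were chosen on a difference from these WT control libraries, their values here are a description and not an independent test. None of the 6 genes was called, and none of the 17257 genes tested (0%). At an unadjusted p under 0.05 edgeR had 4254 genes, 1 of the 6 among them (*S100a8*), and DESeq2 over the 12 libraries called 1067 genes and none of the 10. The log2 fold change was 2.91 for *S100a8* (SE 1.15, edgeR adjusted p = 0.161), with niacin-treated replicates 4506 and 4508 above every WT control library and the other 2 below every one. It was 2.32 for *S100a9* (SE 1.22, edgeR adjusted p = 0.245), 1.27 for *Ngp* (SE 1.01, edgeR adjusted p = 0.432) and 1.19 for *Mmp8* (SE 0.58, edgeR adjusted p = 0.221). *Lcn2* was at −0.47 (SE 0.57, edgeR adjusted p = 0.619) and *Csf3r* at 0.07 (SE 0.37, edgeR adjusted p = 0.918). With replicate 4508 left out, it was 0.83 for *S100a8*, 0.65 for *Mmp8*, −0.50 for *S100a9*, −1.03 for *Ngp* and −0.31 for *Csf3r*, so the last 3 changed direction. For none of the 10 genes did the 2 groups separate, while 31.4% of all genes tested did.

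The 4 genes removed by the filter were fitted without it. Between niacin-treated and WT control mice the log2 fold change was 2.51 for *Retnlg* (SE 0.96, edgeR adjusted p = 0.21), 2.26 for *Ltf* (SE 0.93, edgeR adjusted p = 0.245), 1.63 for *Camp* (SE 1.22, edgeR adjusted p = 0.573) and 1.11 for *Cxcr2* (SE 1.14, edgeR adjusted p = 0.665). With 2 to 9 reads in WT control in all 4 libraries together, these values depend on the prior count of the fit.

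Other genes of neutrophils and of their signals were counted in 4 lists of 56 genes, of which 28 passed the filter. In the comparison of the libraries labelled *Mtmr2* KO with WT control none of the 28 was called by edgeR, and DESeq2 called 7. An unadjusted p under 0.05 was found for 13 of the 28 (46.4%) and for 17.2% of all genes tested. The median log2 fold change of the 28 was 0.56, against 0.03 over all genes. Between niacin-treated and untreated *Mtmr2* KO mice 4 of the 28 (14.3%) were called, all lower, against 0.73% of all genes tested: *Pglyrp1*, *Clec4d*, *Socs3* and *Saa3*. *Clec4d* and *Saa3* had most of their reads in the libraries labelled *Mtmr2* KO, through which such genes can pass the filter. The lists were also chosen with earlier results known, so this share is a description. Between niacin-treated and WT control mice none was called by edgeR, and DESeq2 called 2. An unadjusted p under 0.05 was found for 8 of the 28 (28.6%), near the 24.7% of all genes tested.

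Primary granules are filled at the promyelocyte stage, and their genes stayed low in every library. Of 6 such genes 1 passed the filter, *Elane*, neutrophil elastase, with 0 to 14 reads per library and a log2 fold change of 0.10 in the libraries labelled *Mtmr2* KO relative to WT control (SE 0.58, edgeR adjusted p = 0.944). *Mpo*, myeloperoxidase, had 3 to 12 reads, and *Prtn3*, proteinase 3, had 1 to 16 reads. The 6 genes together had 0.763 to 1.20 CPM in WT control, 0.48 to 1.57 CPM in the libraries labelled *Mtmr2* KO and 0.953 to 1.37 CPM in niacin-treated mice, and at least 1 of the 6 was at 0 reads in each library. The ranges of the 3 groups overlapped. *Ly6g*, the surface protein by which mouse neutrophils are usually sorted, was named after its values were seen. It had 0 reads in WT control, 1, 4, 0 and 2 in the libraries labelled *Mtmr2* KO and 1 in niacin-treated mice, in replicate 4508.

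Of 28 further genes of secondary granules or mature neutrophils, 15 passed the filter and none was called in the first comparison, although 14 of the 15 had a log2 fold change above 0. The exception, *Mmp9*, was named after its values were seen and was at −1.27 (SE 0.32, edgeR adjusted p = 0.0963). It had 2.32 to 4.5 CPM in WT control and 1.06 to 2.19 CPM in the libraries labelled *Mtmr2* KO. The 3 listed genes with the highest level are not specific to neutrophils. *Hp*, haptoglobin, had 139.2 to 285.7 CPM in WT control and 332.6, 1224, 611.1 and 37.8 CPM in replicates 4501 to 4504, a log2 fold change of 1.49 (SE 0.64, edgeR adjusted p = 0.258). *Anxa1*, annexin A1, was at 0.20 (SE 0.23, edgeR adjusted p = 0.684) and *Lrg1*, a secreted glycoprotein, at 0.19 (SE 0.54, edgeR adjusted p = 0.882). For *Hp* and *Lrg1* replicate 4504 had the lowest level of all 12 libraries.

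*Pglyrp1*, a peptidoglycan-recognition protein of neutrophil granules, had 3.89, 4.13, 5.47 and 5.25 CPM in WT control. In the libraries labelled *Mtmr2* KO it had 10.4, 11.6, 13.7 and 7.01 CPM, all above WT control, a log2 fold change of 1.19 (SE 0.25, edgeR adjusted p = 0.0612). *Pglyrp1* was lower in niacin-treated mice, at 2.25, 3.59, 3.70 and 5.23 CPM, with a log2 fold change of −1.53 against untreated *Mtmr2* KO (SE 0.26, edgeR adjusted p = 0.0383). *Clec4d*, a C-type lectin of myeloid cells, had 3, 4, 3 and 6 reads in WT control, 18, 41, 81 and 9 in the libraries labelled *Mtmr2* KO and 3, 3, 0 and 8 in niacin-treated mice. Its log2 fold change between niacin-treated and untreated *Mtmr2* KO mice was −3.10 (SE 0.69), and −2.58 and not called without replicate 4503. As *Clec4d* can pass the filter through the libraries where it is high, this value is a description. For both genes replicate 4503 had the highest level, as for *Lcn2*.

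Among 8 genes known to be induced together with *Lcn2* by inflammatory signals, 7 passed the filter. Relative to WT control, 5 of the 7 had a log2 fold change above 0 in the libraries labelled *Mtmr2* KO and 2 below. Those were *Cebpb* at −0.53 (SE 0.28, edgeR adjusted p = 0.352) and *Icam1* at −0.16 (SE 0.23, edgeR adjusted p = 0.74). Between niacin-treated and untreated mice 5 were below 0 and 2 above. *Ccl2* was at 1.62 (SE 0.50, edgeR adjusted p = 0.103) and *Cebpb* at 0.73 (SE 0.28, edgeR adjusted p = 0.18). These 3 genes were named after their values were seen. *Saa3*, an acute-phase serum amyloid, had 11, 4, 4 and 4 reads in WT control and 37, 866, 367 and 1 in replicates 4501 to 4504, or 1.29, 38.8, 11.7 and 0.048 CPM. In niacin-treated mice it had 0, 1, 4 and 10 reads, and the log2 fold change against untreated *Mtmr2* KO was −6.23 (SE 1.38). As *Saa3* can pass the filter through the libraries where it is high, this value too is a description. *Saa3* thus had its highest levels in the same 3 libraries as *Lcn2*, led by replicate 4502, and 10 reads in replicate 4508. *Socs3*, a feedback inhibitor of cytokine receptors including Csf3r, had 16.3 to 29.4 CPM in the libraries labelled *Mtmr2* KO and 11.2 to 15.9 CPM in niacin-treated mice (log2 fold change −0.80, SE 0.18, edgeR adjusted p = 0.0486). *Cebpd*, a C/EBP factor, was at 0.73 in the libraries labelled *Mtmr2* KO against WT control (SE 0.21, edgeR adjusted p = 0.118), and *Nfkbiz*, a regulator of NF-kB target genes, at 0.46 (SE 0.23, edgeR adjusted p = 0.324). Without replicate 4503 the log2 fold changes between niacin-treated and untreated mice were −1.39 for *Pglyrp1*, −2.58 for *Clec4d*, −6.27 for *Saa3* and −0.67 for *Socs3*. All 4 calls among the listed genes were lost with any 1 WT control library left out and without replicate 4503, 4506 or 4507, and only that of *Pglyrp1* was kept without replicate 4501, 4505 or 4508.

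Of 14 ligands and partner receptors of the 10 genes, 5 passed the filter and none was called. *Csf3*, the ligand of Csf3r, was named after its values were seen. It had 20 reads in replicate 4503 and 0 to 2 in each of the other 11 libraries. *Tlr4*, a receptor of calprotectin, had a log2 fold change of 0.33 in the libraries labelled *Mtmr2* KO relative to WT control (SE 0.25, edgeR adjusted p = 0.52). *Slc22a17*, a receptor of Lcn2, was at −0.19 (SE 0.24, edgeR adjusted p = 0.723), and *Lrp1*, a receptor of lactoferrin among many ligands, at −0.20 (SE 0.24, edgeR adjusted p = 0.687). These 3 receptors had 11.9 CPM or more in every library.

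Markers of other blood and tissue cells were read beside these values. Of 9 red blood cell genes measured, 6 passed the filter and none was called in any comparison by edgeR. Their sum was 291.7 to 1082 CPM in WT control, 189.4 to 809.1 CPM in the libraries labelled *Mtmr2* KO and 238.9 to 1053 CPM in niacin-treated mice. Replicate 4508 had 1053 CPM, and WT control replicate 4499 had 1082 CPM with 0.218 CPM of *S100a8* and *S100a9* together. All 11 monocyte and macrophage genes passed the filter and none was called, with sums of 497.8 to 589.5 CPM, 445.7 to 1104 CPM and 597.4 to 858.1 CPM in the 3 groups in the same order. The highest sum, in replicate 4502, and that of replicate 4508, 858.1 CPM, went with high calprotectin levels, whereas replicate 4505 had 837.2 CPM and 0.196 CPM of *S100a8* and *S100a9*. The part of these cells in the results was not tested.

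Mast cell genes differed in the other direction. Of 7 genes of mast cells, eosinophils and basophils measured, 4 passed the filter. *Mcpt4*, *Cma1*, *Tpsb2* and *Cpa3* were all called higher in niacin-treated than in untreated *Mtmr2* KO mice, as were 0.695% of all genes tested. With a library left out, 0 to 4180 genes were called in this comparison. Values of these mast cell genes without replicate 4503 are not given here. The 7 genes summed to 39.8 to 88.6 CPM in WT control, 16.9 to 44.6 CPM in the libraries labelled *Mtmr2* KO and 73.1 to 90.9 CPM in niacin-treated mice. Skeletal muscle genes differed between niacin-treated libraries, with 3030 and 2821 CPM for 6 genes in replicates 4506 and 4507 and 72.0 and 87.5 CPM in replicates 4505 and 4508. Replicate 4508, with the highest calprotectin level of its group, was thus not one of the libraries rich in muscle transcripts. Of 7 adipocyte genes, all had log2 fold changes below 0 in the libraries labelled *Mtmr2* KO against WT control, and 2 were called lower, *Lep*, the hormone leptin, at −2.03 (SE 0.29, edgeR adjusted p = 0.0364), and *Plin1*, a lipid droplet protein, at −1.84 (SE 0.32, edgeR adjusted p = 0.0448). Of the 17257 genes tested, 38 were called lower in this comparison. Without replicate 4503 neither *Lep* nor *Plin1* was called, at −1.89 and −1.90. Under niacin all 7 were above 0 relative to untreated *Mtmr2* KO, and *Lep* was called at 1.84 (SE 0.29, edgeR adjusted p = 0.0383), or 1.70 and not called without replicate 4503. The 7 genes summed to 2583 to 3402 CPM in WT control and 2164 to 4412 CPM in niacin-treated mice. Replicates 4501 to 4504 had 1901, 4558, 1669 and 753.5 CPM, so the highest and the lowest adipocyte sums of all were in the libraries labelled *Mtmr2* KO, the lowest in replicate 4504, which was also low in the neutrophil genes. Of 10 fitted genes of B cells, T and NK cells, platelets and keratinocytes, edgeR called none in any comparison, and 1, 1 and 0 had an unadjusted p under 0.05. Whether these differences bear on the neutrophil genes was not tested.

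The genes with the pattern most like the calprotectin pair were found by Pearson's r between log2 CPM and the log2 of the summed CPM of *S100a8* and *S100a9*, over the 12 libraries and 17251 genes other than the 6 fitted here. The 10 with the highest r, from 0.92 to 0.85, were *Map3k9*, *Mtg2*, *Sgtb*, *Alg13*, *Fpr2*, *Abca17*, *Chil3*, *Fgd3*, *Surf2* and *Wdr54*. *Fpr2*, a formyl peptide receptor, and *Chil3*, a chitinase-like protein of myeloid cells, are neutrophil genes of the lists above, with r of 0.90 and 0.88. Of the 10 genes of the present set, *Mmp8* had an r of 0.90, *Ngp* 0.88, *Lcn2* 0.81 and *Retnlg* 0.79, and *Camp* the lowest at 0.61. Most of the 10 listed genes moved little, such as *Mtg2*, at 14.3 ± 0.737 CPM (SD, n = 4) in WT control, 16.4 ± 2.17 CPM in the libraries labelled *Mtmr2* KO and 14.7 ± 2.59 CPM in niacin-treated mice. These r are a description, since the points are 12 libraries of 3 groups that also differ in depth and composition.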

How the data were processed

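RNA selected for polyA tails was sequenced on an Illumina HiSeq instrument from 12 sciatic nerves. The authors mapped reads to GRCm38 with STAR and deposited whole-number counts per Ensembl gene, without normalization. For the counting program and strand, the sources used here give nothing. The deposited comparison tables also hold log2 fold changes and p-values, which were not used; only their gene symbols were.

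The members and gene lists were chosen with earlier results of these data known. Genes were kept by filterByExpr and fitted over all 12 libraries with edgeR 4.0.16 (R 4.3.3) after TMM scaling, with two-sided quasi-likelihood tests and Benjamini-Hochberg adjustment over 17257 genes. The standard error is the log2 fold change divided by the square root of F. Log2 CPM used a prior count of 2, and exon lengths came from GENCODE M21. Named genes are the 10 members, *Mtmr2*, the 3 most abundant and all called genes of each of 4 lists, and the 10 genes most correlated with *S100a8* and *S100a9*. Results of the Schwann cell list are not reported here. *Mbp* is a gene of that list, named outside this rule. The mast cell genes named are those fitted, and the adipocyte genes named are those called. Both were therefore named after their values were seen. Others were named after their values were seen, as stated. DESeq2 1.42.0, limma 3.58.1 (voom with sample weights), other scalings, filters, *Xist* as a covariate and each library left out were alternatives. The test was checked on counts simulated for the WT control and *Mtmr2* KO libraries, with a single dispersion for all genes. That check does not cover the wide spread between the real libraries labelled *Mtmr2* KO. Mice are 1 library each. The edgeR p-values set a difference between groups against the spread between mice, estimated over all 12 libraries together. The wide spread of the libraries labelled *Mtmr2* KO thus enters every comparison of that fit.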

Additional observations from a re-analysis of the deposited data

Results flagged for a closer look

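In each of the 30 groups of 4 values (10 genes, 3 groups), the gap of the highest or lowest library to its nearest neighbour was compared with the range by Dixon's test at 95%. It was passed in 7 groups, where chance gives about 1 in 20 for normally distributed values, and the genes are not independent of each other. CPM values resting on few reads are not of that kind, so the count of 7 is a description. In niacin-treated replicate 4508 *S100a8* had 3.38 CPM (next highest 0.563), *S100a9* 4.28 CPM (0.228), *Ngp* 0.814 CPM (0.0913), *Mmp8* 1.71 CPM (0.734), *Cxcr2* 0.557 CPM (0.0913) and *Csf3r* 4.16 CPM (2.10). *Lcn2* had 4.76 CPM in the same library and was not set apart from its group. In replicate 4501, labelled *Mtmr2* KO, *Cxcr2* had 2.02 CPM against 0.134 CPM in the next library.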

How the results depend on the processing

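For the libraries labelled *Mtmr2* KO against WT control, 1 neutrophil gene was called. DESeq2 on 12 libraries or on the 2 groups called 6, no filter 3, and voom weights, *Xist* as a covariate and edgeR on the 2 groups 0; leaving out a library gave 0 to 3. For niacin-treated against untreated *Mtmr2* KO, also 1 call, voom weights gave 2 and edgeR on the 2 groups 0 (0 to 1 with a library left out). For niacin-treated against WT control no setting called any. Of the other listed genes, 0 were called in the first comparison, 7 by DESeq2 (12 libraries or 2 groups) and 6 with no filter (0 to 5 with a library left out). In the second, 4 became 7 with DESeq2 on 12 libraries, 8 with voom weights, 1 with at least 10 counts in every library or *Xist* as a covariate, and 0 with edgeR on the 2 groups (0 to 11 with a library left out). In the third, 0 became 2 with DESeq2 on 12 libraries or no filter, 13 with voom weights and 11 with DESeq2 or edgeR on the 2 groups (0 to 7 with a library left out). Settings for these other lists were added after seeing the data.

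Against WT control in niacin-treated mice, the log2 fold change turned to −0.50 for *S100a9*, −1.03 for *Ngp* and −0.31 for *Csf3r* without replicate 4508, to −0.24 for *Ngp* and −0.12 for *Csf3r* with voom weights, and to −0.06 for *Csf3r* without replicate 4498. With a library left out their values ran from −0.50 to 3.02, −1.03 to 1.64 and −0.31 to 0.20. Without replicate 4501 the log2 fold change of *Csf3r* was 0.00 in the libraries labelled *Mtmr2* KO against WT control and turned to 0.07 in niacin-treated against untreated *Mtmr2* KO. The cause was not tested. Other scalings of the counts moved no log2 ratio of mean levels by more than the spread between replicates.

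Counts over all genes moved far more. Of 17257 genes, 46 were called in the first comparison, 0 with edgeR on the 2 groups, 12 with *Xist* as a covariate, 108 with voom weights, 341 with no filter, 432 and 659 with DESeq2 on 2 groups and 12 libraries, and 0 to 457 with a library left out. In the second, 246 became 0, 50, 2007, 573, 444 and 1039 under the same settings, and 0 to 4180. In the third, 0 became 5586 with edgeR on the 2 groups, 7311 with voom weights, 311 with no filter, 5710 and 1067 with DESeq2, and 0 to 3826.

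No paired analysis was possible because the groups share no replicate numbers. Depth limits *Camp*, *Ltf*, *Retnlg* and *Cxcr2* in particular, which had 3 reads or fewer in most WT control libraries. The same was true of *Ngp*, although it passed the filter and was fitted.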
